A study of Mus musculus with 8 samples.

Results

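This report describes 3186 genomic regions that carried an ATAC-seq peak in mouse embryonic fibroblasts (MEFs) and again in embryonic stem cells (ESCs), but none at day 5 or day 10 of the reprogramming that leads from the first cell type towards the second. They were selected on the peak lists themselves. Peaks of the 4 deposited lists that lay within 400 bp of each other were merged into 101701 regions, 19455 of which held a MEF and an ESC peak, and the 3186 were those without a peak in either day list. That is 16.4% of the shared regions (95% Wilson interval 15.9% to 16.9%, counting error only). For comparison, no peak on either day was found in 81.1% of regions with a MEF and no ESC peak, and in 84.9% of regions with an ESC and no MEF peak. These shares are set by the rule and carry no test.

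ATAC-seq uses a transposase that cuts into accessible DNA, so that stretches rich in cuts mark open chromatin. The 8 libraries formed 4 groups of 2. MEFs were uninfected wild-type cells of the C57BL/6J-OG2 strain, which carries a GFP reporter under Oct4 sequence. The day 5 and day 10 cells were MEFs of that strain that had received retroviruses for Oct4, Sox2, Klf4 and c-Myc (OSKM) with a FLAG control vector, in ESC medium with vitamin C, and they were whole cultures in which few cells go on to become pluripotent. ESCs were wild type and uninfected, and replicate 1 was labelled C57Bl6J while replicate 2 was labelled C57BL/6J-OG2. The labels placed ESCs on mitomycin-treated feeder MEFs, whereas the methods described gelatin and 2i/L medium with no feeders. Of 14 fibroblast marker genes, 13 had a start-site peak in the MEF list, 11 on each day and 8 in the ESC list (among them Twist1, Col1a1 and Pdgfra), which had none at Prrx1, Col3a1, Thy1, Pdgfrb or Postn. The part of feeder cells in the regions described here was not tested.

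Reprogramming removes the accessible sites of the fibroblast and builds those of the stem cell over several days, and only a minority of the cells reach pluripotency. Sites open at both ends of that path are mostly promoters of widely used genes and sites bound by CTCF, the protein that anchors chromatin loops. Distal fibroblast sites are typically bound by AP-1 (the FOS and JUN factors) and TEAD factors (the DNA-binding partners of YAP), and distal stem cell sites by OCT4, SOX2, KLF and ESRRB. KLF4 is itself one of the delivered factors.

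The sequences below are the strongest of these regions that lay over 5 kb from any annotated start site and held a match to the CTCF, AP-1, TEAD or KLF consensus, shown because those 4 motifs carry the comparisons of sequence described further on. Each is 200 bp of the plus strand of mm10 (GRCm38) around the midpoint of the overlap of the MEF and the ESC peak, and capitals mark the matched letters. The CTCF window is chr12:71073384-71073583 in an intron of Arid4a, which encodes a chromatin-binding protein, the AP-1 window is chr11:16559306-16559505 between genes, the TEAD window is chr7:74172869-74173068 between genes and the KLF window is chr3:121577254-121577453 between genes. A match to such letters is a description of the sequence and not evidence that a factor was bound.
CTCF match in Arid4a: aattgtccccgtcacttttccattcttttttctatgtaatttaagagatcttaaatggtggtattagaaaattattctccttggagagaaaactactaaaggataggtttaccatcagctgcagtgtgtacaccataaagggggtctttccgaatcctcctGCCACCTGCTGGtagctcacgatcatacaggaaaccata
AP-1 match near Akt2-ps: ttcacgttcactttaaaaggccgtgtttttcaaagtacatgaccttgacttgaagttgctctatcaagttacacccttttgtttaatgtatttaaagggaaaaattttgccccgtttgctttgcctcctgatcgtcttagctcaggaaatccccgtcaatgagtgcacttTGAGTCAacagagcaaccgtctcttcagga
TEAD match near Gm27459: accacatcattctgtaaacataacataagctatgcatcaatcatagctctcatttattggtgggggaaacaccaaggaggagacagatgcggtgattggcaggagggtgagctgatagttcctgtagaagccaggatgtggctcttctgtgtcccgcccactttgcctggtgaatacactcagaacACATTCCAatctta
KLF match near Slc44a3: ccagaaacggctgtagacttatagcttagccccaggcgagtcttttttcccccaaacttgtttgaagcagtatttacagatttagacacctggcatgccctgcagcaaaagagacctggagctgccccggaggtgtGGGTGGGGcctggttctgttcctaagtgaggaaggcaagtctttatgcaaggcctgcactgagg

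In these 4 regions both peaks scored above the middle of their lists. The Arid4a region had a MEF peak of 4.09-fold enrichment, at the 62.7th percentile of scores in the MEF list, and an ESC peak of 6.89-fold at the 96.9th percentile. The region near Akt2-ps, a pseudogene 44.3 kb away, had a MEF peak of 4.69-fold (percentile 86.3) and an ESC peak of 4.92-fold (percentile 87.1). The region near Gm27459 had a MEF peak of 5.86-fold at percentile 99.3 and an ESC peak of 4.84-fold at percentile 87.7, and the nearest day peak lay 117 kb away. The region near Slc44a3, a gene for a choline transporter-like protein 44.6 kb away, stood at percentile 85.8 in MEFs and 85.4 in ESCs, and the closest day peak lay 5.81 kb away. The fold enrichment is the ratio over background that the authors' peak caller gave, and a percentile is the position of a peak's score among all peaks of its own list. It ranks peaks within a list only and does not correct for depth, which is unknown.

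Most regions of the class were far weaker than these examples. The values that follow describe the lists that chose the regions and carry no test. The median percentile of the MEF peak was 31.4 (quartiles 15.1 and 52.3) and that of the ESC peak 35.2 (16.3 and 59.1). In the 14071 regions with peaks in all 4 lists, used throughout as the comparison, the medians were 81.5 and 70.6. The corresponding median fold enrichments were 2.99 in MEFs and 3.27 in ESCs, against 3.89 and 3.79. Only 40 regions (1.26%) had a MEF peak among the top 10% of the MEF list and 88 (2.76%) an ESC peak among the top 10% of the ESC list, compared with 30.9% and 19.8% of the regions open in all lists. Regions that lacked a peak on a single day lay close to the class described here, with MEF medians of 42.0 (missing only at day 5, 1478 regions) and 39.5 (missing only at day 10, 720 regions) and ESC medians of 40.7 and 45.6.

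**Figure D1:**
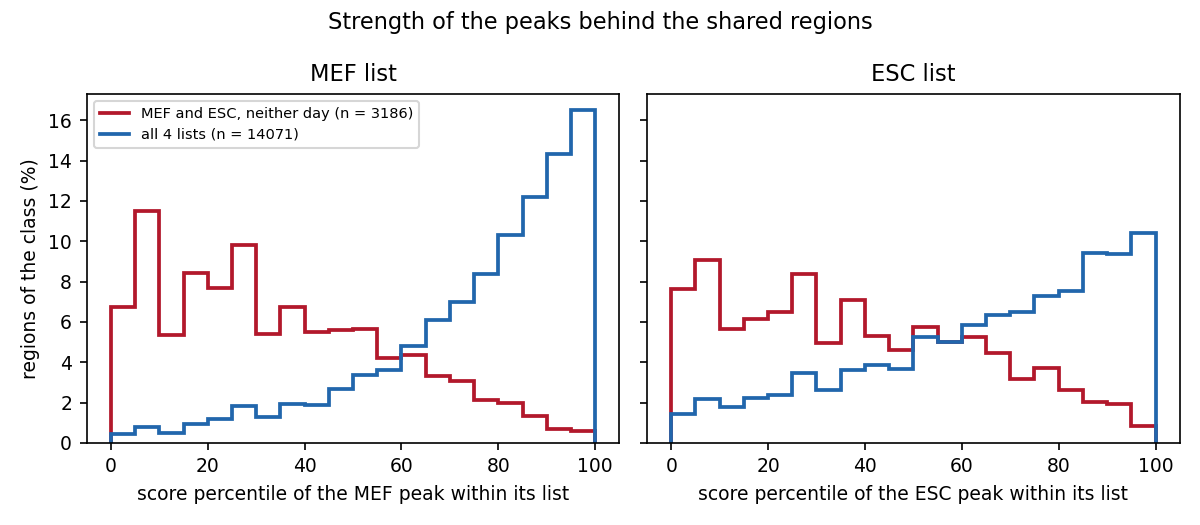
Distribution of the score percentile of the MEF peak (left) and the ESC peak (right) in regions with a MEF and an ESC peak and none on either day (red, n = 3186) and in regions with peaks in all 4 lists (blue, n = 14071), as percent of the class. The red outlines are highest at low percentiles (medians 31.4 and 35.2) and the blue ones at high percentiles (medians 81.5 and 70.6).

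The MEF and the ESC peak of a region also matched each other less well. Their percentiles were almost unrelated across the 3186 regions (Spearman correlation 0.06, across regions of the same pair of lists, a description only), while across the regions open in all lists it was 0.53. Among distal regions alone, over 5 kb from a start site, the values were 0.03 and 0.19. The MEF peak stood over 20 percentile points above the ESC peak in 742 regions (23.3%) and the ESC peak over 20 points above the MEF peak in 1018 (32.0%). In the regions open in all lists these shares were 30.5% and 8.86%. Among distal regions they were 23.6% and 31.9% in the class, against 32.8% and 22.8% in those open in all lists. Gaps of over 20 points in either direction were thus about as common in both sets of distal regions. The 3186 regions were 831.5 bp wide at the median, from 211 bp to 4171 bp, against 1335 bp for regions open in all lists. In 2820 of them (88.5%) the MEF and the ESC peak shared at least 1 bp, and in 1399 (43.9%) the overlap covered at least 50% of both peaks. The shares were 98.9% and 73.9% in the regions open in all lists. The other 366 regions joined a MEF and an ESC peak that did not touch, with a median gap of 141 bp and a largest gap of 399 bp, and these may be neighbouring sites.

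**Figure D2:**
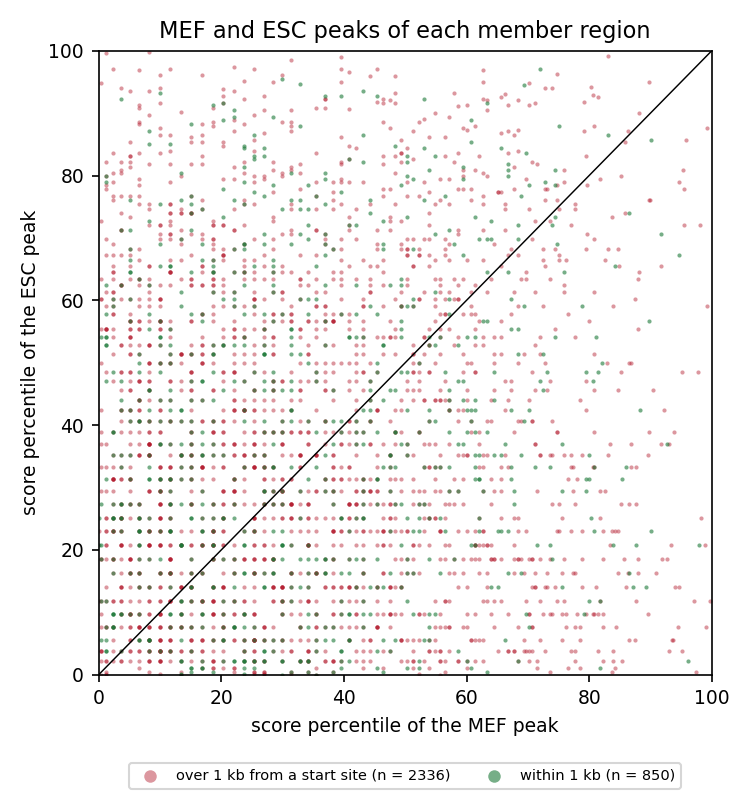
Score percentile of the ESC peak against that of the MEF peak for each of the 3186 regions, in green for the 850 within 1 kb of an annotated start site and in red for the others, with the line of equal percentiles. The points are densest at low percentiles of both axes and do not follow the line, and 14 lie where both percentiles are over 80.

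The share of shared regions that lacked a peak on both days fell steadily with strength, defined for each region as the lower of its MEF and ESC percentiles. It was 47.7% (1006 of 2111) at strengths under 10, 29.0% between 20 and 30, 4.88% between 60 and 70 and 0.630% (14 of 2222) between 80 and 90. No region was missing on both days among the 1902 with a strength over 90 (upper Wilson limit 0.202%). At each strength up to 90, regions far from genes' start sites were missing more often than those at start sites. Between 50 and 60, for example, 27.0% of the distal regions were missing on both days (103 of 382, interval 22.8% to 31.6%) and 3.17% of the regions within 1 kb of a start site (44 of 1388, 2.37% to 4.23%). Between 80 and 90 it was 8.06% (10 of 124, 4.44% to 14.2%) and 0.0975% (2 of 2051, 0.0267% to 0.355%). The number of reads behind each list is unknown and the day lists were shorter (36219 and 35226 peaks) than the MEF and ESC lists (56514 and 48486), so a site below the threshold on a day cannot be told apart from a closed one. With each list cut to its 35226 highest scores, 861 regions met the rule, 6.46% of those shared.

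**Figure D3:**
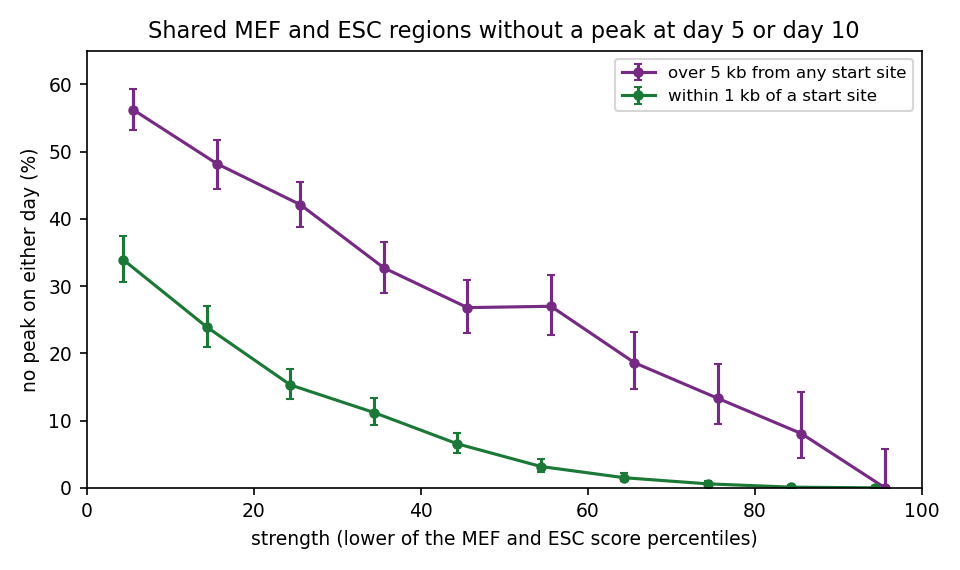
Percent of shared MEF and ESC regions without a peak on either day, in bins of 10 points of strength (the lower of the MEF and ESC score percentiles), for regions over 5 kb from any start site (purple) and within 1 kb of one (green), with 95% Wilson intervals. The series run from 56.2% and 33.9% in the lowest bin to 0 in the highest, and the purple series lies above the green one in every bin below 90.

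Position relative to genes was not used by the rule. Of the 3186 regions, 850 (26.7%, interval 25.2% to 28.2%) lay within 1 kb of a start site in GENCODE mouse release 21, close to the 21.3% of all 101701 regions. In the regions open in all lists it was 80.7%, a difference of -54.0 percentage points (Newcombe 95% interval -55.7 to -52.4). Within 4 bins of strength, with edges at 20, 40 and 60, the difference was -39.3 points (-41.3 to -37.2). The bins were wide, the top one most of all, so strength could still differ between the classes within a bin. The share was 45.7% in regions missing only at day 5 and 36.1% in those missing only at day 10, and 8.40% and 11.6% in regions found only in MEFs or only in ESCs. Of the remaining regions, 1149 (36.1%) lay in introns, 1033 (32.4%) between genes and 154 (4.83%) over exons. The median distance to a start site was 6676 bp.

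**Figure D4:**
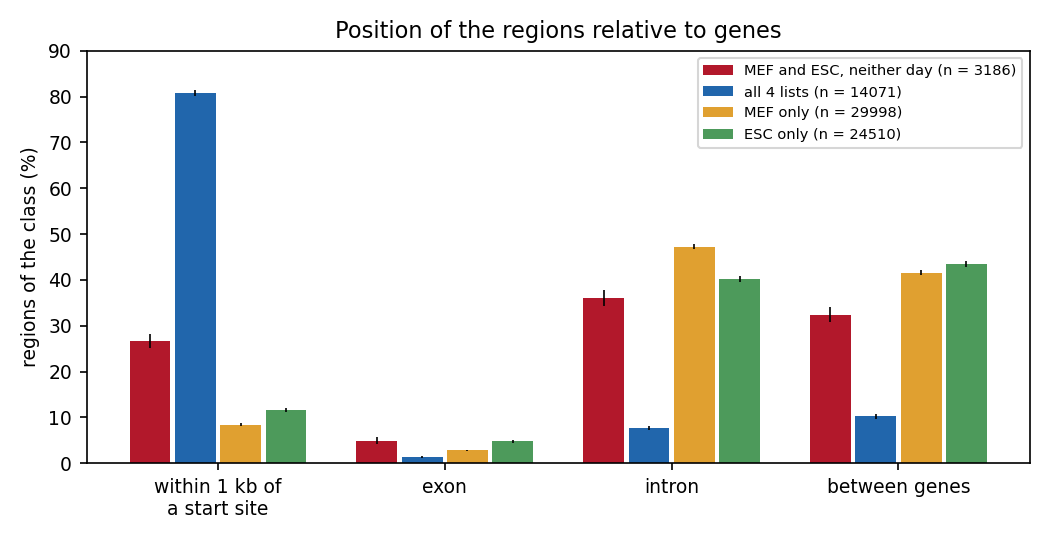
Percent of regions within 1 kb of a start site, in an exon, in an intron or between genes, for regions with a MEF and an ESC peak and none on either day (red), in all 4 lists (blue), only in MEFs (yellow) and only in ESCs (green), with 95% Wilson intervals. The red bars stand between the blue bar (80.7%) and the yellow and green bars (8.40% and 11.6%) at start sites, and at 36.1% in introns against 7.74% for blue.

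The regions at start sites were less often rich in CpG than start sites open in all lists. Promoters of widely expressed genes mostly lie in such islands, stretches rich in G, C and the CpG dinucleotide. The central 200 bp of the 850 regions had a mean GC content of 58.8% (SD 11.4), against 65.4% (SD 9.20) for the 11359 start-site regions open in all lists. A CpG content over 0.6 of that predicted from base composition was found in 42.7% of them, against 79.4%. This share was 55.2% in start-site regions missing only at day 5 and 52.7% in those missing only at day 10. It was 9.68% in those found only in MEFs and 15.5% in those found only in ESCs. A lower share than in start sites open in all lists was thus not particular to the class. Protein-coding genes were nearest in 652 of the 850 (76.7%, against 90.7% of the start-site regions open in all lists). A further 65 regions (7.65%, against 2.52%) were at lincRNA genes and 31 (3.65%, against 0.379%) at processed pseudogenes. The 652 regions belonged to 635 protein-coding genes, and for 228 regions (35.0%) another start site of the same gene carried a peak on at least 1 day, so for those genes an alternative start and not the whole gene lacked a peak. Abr, Opcml, which encodes a cell adhesion molecule, and Kcnh2, which encodes a cardiac potassium channel, were of this kind.

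The strongest start-site region with no other start open on the days was at Piezo2, the gene of a mechanically gated ion channel. It spanned chr18:63385964-63387403, with a MEF peak of 4.06-fold (percentile 90.1) and an ESC peak of 4.54-fold (percentile 85.8), and the nearest day peak lay 75.1 kb away. The start site of Flt4, the gene of a receptor for lymphatic growth factors (chr11:49609213-49610751), had a MEF peak of 4.07-fold (percentile 86.5) and an ESC peak of 3.95-fold (percentile 74.0), with the nearest day peak 101 kb away. The start site of Gpr137b (chr13:13393314-13394221) had 4.74-fold (percentile 74.4) and 4.56-fold (percentile 73.3). All of these were GC-rich, at 64.5%, 70.5% and 73.0% of the central 200 bp.

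Of the 10 strongest regions, 6 lay between genes, 2 in introns and 2 at start sites (Piezo2 and Abr). The strongest of all lay at chr14:34891657-34892733 in an intron of Grid1, a glutamate receptor gene, 1.88 kb from the start of the microRNA gene Mir346, with 4.53-fold in MEFs (percentile 89.8) and 4.88-fold in ESCs, whose percentile was higher still. An intronic region of Rell1 (chr5:63953085-63954109) had the highest ESC percentile of the 10, at 99.1 (5.49-fold), with 4.57-fold and percentile 83.1 in MEFs. The region between genes at chr9:77825413-77826005 was only 593 bp wide, with 4.57-fold and percentile 95.8 in MEFs and 5.42-fold and percentile 85.8 in ESCs. The other 3, nearest to Gm47985, Zscan2 and Abr, had strengths of 88.1, 81.5 and 83.1. These 10 strongest regions lay between 1.98 kb and 117 kb from the nearest peak of either day. Across all 3186 the median distance to the nearest region with a day peak was 14.8 kb, against 13.7 kb for regions open in all lists, measured to other regions, and 528 (16.6%) had one within 5 kb.

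The base composition of the distal regions was compared next. The 1779 distal regions had a mean GC content of 48.8% (SD 7.02) in the central 200 bp, against 51.6% (SD 8.69) in the 2003 distal regions open in all lists, a difference of -2.80 points (-3.31 to -2.30). The mean was 44.1% in distal regions found only in MEFs and 46.7% in those found only in ESCs. Repeats made up 11.8% of the bases at the mean and over 50% of the bases in 43 regions (2.42%), against 1.15% of the distal regions open in all lists, 2.69% of those found only in MEFs and 21.7% of those found only in ESCs.

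In the same 200 bp windows, AP-1 matches were less frequent than in MEF-only sites and more frequent than in ESC-only sites, as in every class of shared regions. The letters searched on both strands were TGACTCA or TGAGTCA for AP-1, ACATTCCA, ACATTCCT, GCATTCCA or GCATTCCT for TEAD, CCACACCC, CCACGCCC, CCCCACCC or CCCCGCCC for KLF, and the 12-letter CTCF core. The windows of all 101701 regions held these in 11.5% for AP-1, 6.96% for TEAD, 11.5% for KLF and 1.17% for CTCF, start sites included. In the 64529 distal regions of all classes, the background for the shares that follow, it was 13.6%, 7.97%, 8.13% and 1.16%. An AP-1 match was present in 207 of the 1779 distal windows (11.6%, interval 10.2% to 13.2%) and in 3.40% of windows 1 kb to either side of them. The same share was 25.0% in distal regions found only in MEFs and 4.04% in those found only in ESCs, with differences of -13.3 points (-14.9 to -11.7) and 7.59 points (6.15 to 9.19). Both directions were seen on nearly every chromosome, with the share lower than in MEF-only regions on all 19 chromosomes compared and higher than in ESC-only regions on 18 of 19. The AP-1 share was 9.14% in distal regions open in all lists, 6.78% in those missing only at day 5 and 9.94% in those missing only at day 10. An intermediate share was thus not particular to the regions without a peak on either day. A TEAD match was present in 187 windows (10.5%, 9.17% to 12.0%) against 2.89% in the flanks. The TEAD share was 9.33% in distal regions found only in MEFs, a difference of 1.18 points (-0.212 to 2.74). In those found only in ESCs it was 8.79%, a difference of 1.72 points (0.316 to 3.29). The direction was uneven, with the share higher than in MEF-only regions on 9 of 19 chromosomes and than in ESC-only regions on 10 of 19. The TEAD share was 9.15% in distal regions missing only at day 5 and 6.53% in those missing only at day 10. A CTCF match was present in 66 windows (3.71%, 2.93% to 4.69%) against 0.225% in the flanks. CTCF matches were 2.95 points more frequent than in MEF-only regions (2.16 to 3.94) and 2.63 points more frequent than in ESC-only regions (1.83 to 3.63). The CTCF share was 4.49% in distal regions open in all lists, 5.25% in those missing only at day 5 and 7.10% in those missing only at day 10. An excess of CTCF over MEF-only and ESC-only regions was thus not particular to the regions without a peak on either day. AP-1 and TEAD matches occurred together in 22 windows (1.24%), and 947 windows (53.2%) held none of the 13 motifs searched.

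Against distal regions that had peaks on both days as well, KLF matches differed most of the 4 motifs. They were present in 142 windows (7.98%, 6.81% to 9.33%), compared with 16.4% (14.8% to 18.1%) of the 2003 distal regions open in all lists, a difference of -8.39 points (-10.4 to -6.33), and the share was lower on all 19 chromosomes. In the flanks the shares were 5.87% and 7.26%. The share of 7.98% was close to that of all distal regions (8.13%), from which the regions open in all lists stood apart, and the share was 11.9% in distal regions missing only at day 5 and 5.97% in those missing only at day 10. A low KLF share was thus not particular to the regions without a peak on either day. AP-1 matches differed by 2.50 points (11.6% against 9.14%, 0.555 to 4.47), TEAD matches by 3.12 points (10.5% against 7.39%, 1.30 to 4.97) and CTCF matches by -0.783 points (3.71% against 4.49%, -2.05 to 0.499). These were less even across chromosomes than KLF. The share was higher than in regions open in all lists on 12 of 19 chromosomes for AP-1, 13 of 19 for TEAD and 8 of 19 for CTCF. Seen from the other side, of the distal shared regions with a KLF match 25.3% (142 of 561, 21.9% to 29.1%) lacked a peak on both days, against 39.3% of those without a match, and with an AP-1 match 44.5% (207 of 465, 40.1% to 49.1%) against 36.9%. The AP-1 and TEAD differences depended on the window. When the whole overlap of the MEF and ESC peaks was searched, which is longer in the regions open in all lists (median over all such regions 770.0 bp against 334.5 bp), they were -0.691 points (-3.15 to 1.79) and 1.27 points (-1.07 to 3.62), while KLF was -20.1 points (-22.7 to -17.5).

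The strength of the peaks differed between these classes, so the differences were also computed within 4 bins of strength. KLF then differed by -7.20 points (-9.37 to -5.03), AP-1 by 3.02 points (0.816 to 5.23), TEAD by 3.30 points (1.34 to 5.26), CTCF by -1.57 points (-2.93 to -0.217) and mean GC by -2.16 points (-2.68 to -1.64). Among the 202 distal regions whose MEF and ESC peaks both stood in the upper 50% of their lists, the TEAD difference was 0.821 points (-3.04 to 5.86), so it was not detectable there, while AP-1 stood at 11.5 points (6.10 to 17.9) and KLF at -11.6 points (-15.8 to -6.29). All intervals treat regions as independent, were computed for 13 motifs without adjustment and cover counting error only.

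**Figure D5:**
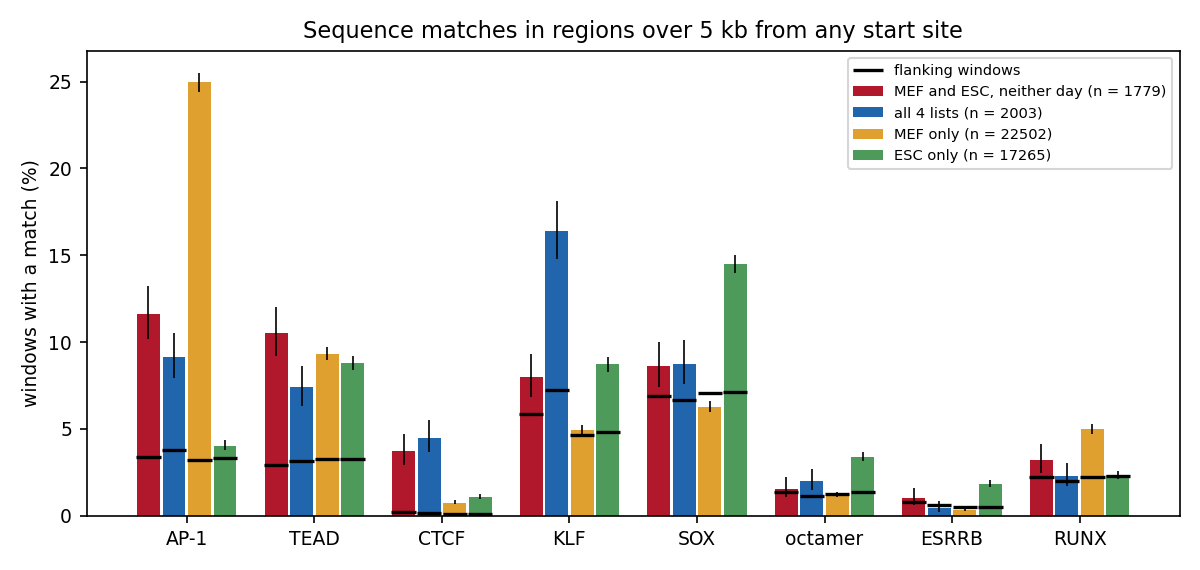
Percent of 200 bp windows with a sequence match in regions over 5 kb from any start site, for regions with a MEF and an ESC peak and none on either day (red), in all 4 lists (blue), only in MEFs (yellow) and only in ESCs (green), with 95% Wilson intervals and black ticks for windows 1 kb to either side. For AP-1 the red bar (11.6%) lies between yellow (25.0%) and green (4.04%), and for KLF it (7.98%) lies below blue (16.4%).

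The 9 other motifs were rarer or closer to the flanks in the distal windows. Shares of all regions stand beside the letters, and in the 64529 distal regions of all classes they were 11.3% for SOX, 2.56% for the octamer, 0.733% for ESRRB and 3.63% for RUNX. SOX matches (CCNTTGT with A or T as the third letter, 10.0% of all regions) were present in 8.60% against 8.74% in regions open in all lists and 14.5% in ESC-only regions, and the octamer bound by OCT4 (ATGCAAAT, 2.18%) in 1.52%, 2.00% and 3.39%. The ESRRB match (TCAAGGTCA, 0.675%) was found in 18 windows (1.01%), against 0.449% and 1.85%, and RUNX (TGTGGTTA or TGTGGTTT, 3.10%) in 57 windows (3.20%), against 2.30% and 2.33%. Of the matches typical of stem cell sites, SOX (-5.89 points, -7.22 to -4.40), the octamer (-1.88, -2.43 to -1.15) and ESRRB (-0.836, -1.26 to -0.224) were thus less frequent than in ESC-only regions. KLF was not clearly so, at 7.98% against 8.71% (-0.729 points, -1.98 to 0.684). The regions open in all lists also stood below ESC-only regions for SOX, the octamer and ESRRB. The NFY box (CCAAT followed by C or G and then by A or G, 7.22% of all regions) was present in 6.18% and the E-box CACGTG (2.97%) in 3.99%. The promoter motifs ETS (CCGGAAGT, 0.643%), NRF1 (TGCGCATG, 0.444%) and the cyclic AMP response element CRE (TGACGTCA, 0.334%) were present in 7, 6 and 4 of the 1779 windows.

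At start sites the shares of several motifs also differed from those of promoters open throughout. ETS matches, common in housekeeping promoters, were present in 4 of the 850 start-site windows (0.471%) and in 3.61% of the 11359 start-site windows open in all lists (difference -3.14 points, -3.60 to -2.34). KLF matches were present in 15.4% against 29.1% (-13.7 points, -16.1 to -10.9) and NFY in 5.18% against 11.1% (-5.91 points, -7.33 to -4.11). AP-1 and TEAD matches were more frequent, at 5.41% against 1.56% (3.85 points, 2.50 to 5.60) and 4.71% against 1.49% (3.22 points, 1.96 to 4.87). Within bins of strength the 5 differences were -1.83 points (-2.55 to -1.12) for ETS, -11.1 points (-14.0 to -8.14) for KLF, -1.82 points (-3.62 to -0.0220) for NFY, 3.44 points (1.76 to 5.12) for AP-1 and 3.24 points (1.71 to 4.77) for TEAD. In all 21690 start-site regions the shares were 2.19% for ETS, 22.0% for KLF, 9.20% for NFY, 4.88% for AP-1 and 3.32% for TEAD. In those missing only at day 5 they were 1.63%, 21.6%, 7.40%, 3.40% and 3.11%. In those missing only at day 10 they were 0.769%, 16.9%, 6.92%, 1.54% and 1.92%. Lower ETS, KLF and NFY shares than in promoters open throughout were thus not particular to the regions without a peak on either day. The AP-1 and TEAD shares were 19.6% and 6.27% in start-site regions found only in MEFs, and 3.04% and 6.46% in those found only in ESCs. Higher AP-1 and TEAD shares than in promoters open throughout, also seen in regions missing only at day 5, were thus not particular to the class either. The AP-1 share was not higher in those missing only at day 10.

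The balance of the MEF and ESC peaks went with the AP-1 content. In the 419 distal regions whose MEF percentile was over 20 points higher, 16.0% (12.8% to 19.8%) held an AP-1 match. The share was 11.7% (9.68% to 14.2%) in the 792 regions within 20 points and 8.27% (6.28% to 10.8%) in the 568 whose ESC percentile was over 20 points higher. The intervals of the first and the last did not overlap. TEAD matches showed no such order, at 11.2%, 9.22% and 11.8%, nor did KLF matches move beyond their intervals, at 8.83%, 8.08% and 7.22%. The octamer was present in 2, 15 and 10 windows of these groups.

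The regions were spread over the genome. They made up between 14.3% and 21.8% of the shared regions of each autosome, highest on chromosome 12 (167 of 766), and 9.51% on the X chromosome (47 of 494, 7.23% to 12.4%). The median gap between neighbours was 349 kb. For 724 of them another lay within 50 kb, and 49 runs of at least 3 regions held 158. Runs had at most 4 members, and 6 runs reached that number, 4 of them on chromosome 12.

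One of these runs lay in Esrrb, which encodes an orphan nuclear receptor of the pluripotency network and was singled out after its values were seen. Its 4 regions spanned chr12:86395012-86433548. The first (chr12:86395012-86395966, intron) had a MEF peak of 2.67-fold (percentile 23.7) and an ESC peak of 4.27-fold (percentile 82.3), and its window held an AP-1 and a TEAD match. The second (chr12:86402352-86403642, intron) had 2.84-fold (percentile 23.7) and 3.27-fold (percentile 37.0). The third covered an annotated start site of the gene (chr12:86421362-86422120), with 3.22-fold (percentile 44.2) and 3.09-fold (percentile 40.7). The fourth (chr12:86433114-86433548, intron) was near the bottom of both lists, with 2.69-fold (percentile 9.99) and 2.43-fold (percentile 0.176). The gene and 50 kb to each side held 12 further regions found only in ESCs, 1 found only in MEFs and none with a day peak, and the nearest day peak to the 4 regions was 153 kb away.

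A second run of 4 lay at the alpha-globin cluster (chr11:32238394-32321370), which is active in red blood cells. Its regions covered or lay close to the start sites of Nprl3, Hbq1b and Hbq1a and a site 20.6 kb beyond Hbq1a. MEF peaks were between 2.44-fold and 3.14-fold (percentiles 6.62 to 35.5) and ESC peaks between 3.00-fold and 4.92-fold (percentiles 18.6 to 80.4). Another run extended from the lincRNA gene Gm40437 into Frmd6, an upstream component of the Hippo pathway, with MEF percentiles of 26.9, 77.0, 77.0 and 15.1 and ESC percentiles of 55.4, 33.3, 72.0 and 2.15. Of these, the second held a TEAD match and the third an AP-1 match.

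By gene, 5208 of 21951 protein-coding genes (23.7%) had at least 1 of the regions in the gene or 50 kb to each side, and 182 had at least 3. The most, 13, fell to Gm20388, an annotated gene model 4435 kb long that spans many others. Dock4, which encodes an activator of the small GTPase RAC, followed with 7 regions. Hoxc5, in the HoxC cluster of developmental transcription factors, had 6, and so did Gm42416, Gm37013 and Gm37388, which are long models over the protocadherin cluster, and Fgfr2, whose model here is 2961 kb long. In Dock4 and 50 kb around it 5 of the regions lay in introns, 1 covered an internal start site (chr12:40788581-40789232) and 1 lay beyond the gene. Their MEF percentiles ran from 11.7 to 57.2 and their ESC percentiles from 7.57 to 74.0, and the internal start had the highest MEF value with 3.91-fold in MEFs and 4.47-fold in ESCs. The same stretch held 1 region open in all lists, 9 found only in MEFs and 8 found only in ESCs.

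In the HoxC cluster the 6 regions were spread from the start of Hoxc13 (chr15:102920700-102922209) past the start of Hoxc11 and an intron of Hoxc4 to chr15:103061067. The highest MEF value was in the Hoxc4 intron, at 3.46-fold (percentile 70.7), with 3.52-fold (percentile 40.7) in ESCs. The Hoxc13 start had 2.50-fold (percentile 9.99) and 2.93-fold (percentile 31.4), and the Hoxc11 start 3.01-fold (percentile 35.5) and 3.33-fold (percentile 48.6). The GC content of the 6 windows was between 51.5% and 65.5%. The window of Hoxc5 with 50 kb to each side held 13 MEF peaks, 6 at day 5, 8 at day 10 and 14 in ESCs.

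Genes of 13 lists were then counted by whether one of the regions lay within 50 kb of a start site, which was so for 4645 of the 21951 protein-coding genes (21.2%). The count was highest for actin and contractile genes, at 9 of 17 (52.9%), and was 5 of 11 (45.5%) for cohesin and CTCF. It was 8 of 20 for imprinted genes and 4 of 10 for the LIF and STAT3 pathway, and the TEAD and YAP pathway and the TGF-beta and BMP pathway both at 7 of 18 (38.9%). The other lists had 4 of 13 for p53 and senescence, 3 of 12 for AP-1 factors, 4 of 16 for the Wnt pathway, 4 of 20 for cytosolic ribosomal proteins, 3 of 16 each for pluripotency and the FGF and ERK pathway, and 2 of 16 for extracellular matrix. Genes of several of these lists lie in neighbourhoods rich in open sites: a region open in all lists was present within 50 kb for 17 of 17 actin and contractile genes and 11 of 11 cohesin and CTCF genes, against 73.5% of all protein-coding genes. The part of gene density in the counts was not tested.

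Among contractile genes, the strongest regions were those of Tpm2 (a tropomyosin), Myh9 (the heavy chain of non-muscle myosin), Itga5 (the fibronectin receptor subunit) and Vcl (vinculin of focal adhesions). The Vcl region (chr14:21031850-21032613) overlapped an exon and had 4.31-fold in MEFs (percentile 74.0) and 3.06-fold in ESCs (percentile 27.3). The Myh9 region (chr15:77847722-77849338) lay 5.55 kb from a start site of the gene, with 3.29-fold (percentile 50.4) and 3.73-fold (percentile 67.3). The regions counted for Tpm2 and Itga5 lay inside other genes, Tln1 and Zfp385a. In the TEAD and YAP list, Amotl1, which encodes an angiomotin that binds YAP, had 3 regions. The strongest lay 0.581 kb from a start site (chr9:14641356-14642948), with 3.44-fold in MEFs (percentile 68.8) and 3.56-fold in ESCs (percentile 76.7). A region 16.6 kb from Ccn1, a classic YAP target gene (chr3:145632448-145633397), had 3.37-fold (percentile 46.4) and 4.03-fold (percentile 77.9), and its window held an AP-1 and a TEAD match.

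Among stem cell genes, the region counted for Nanog lay 17.1 kb from its start (chr6:122689336-122690422) and was mainly a MEF site, with 5.78-fold and percentile 98.3 in MEFs against 2.70-fold and percentile 25.2 in ESCs. The region at Fgf4, the growth factor gene expressed in early embryonic cells, covered the start site (chr7:144861066-144862322) at low scores, 2.51-fold (percentile 6.62) in MEFs and 2.26-fold (percentile 18.6) in ESCs. The one counted for Utf1 lay 48.5 kb away at the start of Kndc1. A region 31.6 kb from Dusp6, the gene of an ERK phosphatase (chr10:99297238-99299225), had 4.23-fold (percentile 82.1) and 3.79-fold (percentile 50.0), with an AP-1 and a TEAD match. In the Wnt pathway, an intron of Tcf7l1, a repressor of Wnt targets (chr6:72677192-72678123), had 3.61-fold (percentile 65.7) and 3.81-fold (percentile 86.8). Among imprinted genes, 1 region at the start of Zim1 (chr7:6688651-6689213) counted also for Peg3, and 1 in an intron of Sgce counted also for Peg10, with MEF percentiles of 31.4 and 26.9.

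The ESC label was checked on start-site peaks of marker genes. Of 14 pluripotency markers, 14 had one in ESCs, 8 in MEFs, 5 at day 5 and 6 at day 10. One of the regions described here lay within 50 kb of 1 fibroblast marker (Lum) and 5 pluripotency markers (Nanog, Esrrb, Utf1, Fgf4 and Lefty1), 14 genes each, where 21.2% of all protein-coding genes had one. With so few genes nothing is read from these counts.

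On the side of the day peaks, few regions lay close to the 400 bp limit, while the limit itself joined the 366 pairs of MEF and ESC peaks that did not touch. Merging only peaks that met gave 2839 regions and merging within 1000 bp gave 3581. The closest day peak to a member was 411 bp from the region chr18:65082531-65083563 near Nedd4l (MEF percentile 53.1, ESC percentile 23.1), followed by 433 bp from chr10:98943615-98944346 near Atp2b1 (16.9 and 20.8). On the other side, a region near Crb1 (chr1:139179602-139181140, 54.0 and 5.60) was left out for a day peak 371 bp away and one near Prex2 (chr1:11250321-11252224, 13.4 and 7.57) for a day peak 277 bp away. In all, 5 members had a day peak within 500 bp and 28 within 1000 bp, and 25 shared regions held only day peaks that touched neither the MEF nor the ESC peak.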

How the data were processed

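The members and gene lists were chosen with earlier results of these data known. According to the labels and methods, the authors aligned reads to mm10 by bowtie2 (version 2.2.0 in the submitters' processing notes, while the methods name a later one) and deposited 1 peak list per group of 2 libraries; the ATAC-seq peak caller is not given in the sources used here. For every peak the authors deposited a score, a fold enrichment and a −log10 q-value. The deposited score equalled 10 times that −log10 value with decimals dropped, and q-values reached 0.1. Peak names came from replicate 1 and the names of the lists held the word intersect, so they look like intersections of replicates. How they were made was not described. By their numbering, at most 76.3% of day 5 peaks and 84.1% of day 10 peaks were still listed, against 83.0% for MEFs and 75.5% for ESCs. A region counted as lacking a day peak may thus have had one in a single library, which was not tested. Read depth is unknown, and 0 columns belonged to other series.

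Peaks were merged in Python 3.11.15 with pandas 2.3.3, and GRCm38 sequence was read with pysam 0.24.0. Windows were centred on the longest MEF and ESC overlap (otherwise on the wider peak), so day peaks did not place them. Scripts were tested on simulated data. Named were the 10 strongest regions with under 50% repeats, the 5 protein-coding genes with the most regions (with ties), up to 4 genes per list, 1 sequence for each of 4 motifs and the regions nearest to the 400 bp limit. Genes of runs and start-site examples were chosen after their values were seen. Alternatives were other merging distances, list lengths, overlaps, strengths, chromosomes, repeats, windows and distances, and, chosen after seeing the data, bins of strength.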

Additional observations from a re-analysis of the deposited data

How the results depend on the processing

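The number of regions and their share depended most on list length and strength. The share was 15.0% with peaks merged only where they met, 17.8% merged within 1000 bp and 15.0% where the MEF and ESC peaks had to overlap. With an overlap of 50% of both peaks it was 10.8% (1399 regions), with the higher-scoring 50% of each list 12.4% (1234 regions), with lists of equal length 6.46% (861 regions), and with both peaks in the upper 50% of their lists 3.35% (337 regions). The differences from regions open in all lists in start-site share, KLF matches and GC content kept their direction with intervals clear of 0 under every alternative run. The AP-1 difference turned to -0.691 points with the whole overlap searched. The TEAD difference no longer cleared 0 with the higher-scoring 50% of each list (1.82 points), an overlap of 50% of both peaks (2.49), both peaks in the upper 50% (0.821) or the whole overlap searched (1.27). The CTCF difference was 0.224 points with the higher-scoring 50% of each list and 0.113 with an overlap of 50% of both peaks, and it cleared 0 at -4.50 with the whole overlap searched and at -1.57 within bins of strength. The cause of these changes was not tested. In all, 63 of 72 differences kept their direction and kept whether their interval cleared 0. For CTCF this meant an interval that held 0, as in the main setting (-0.783 points, -2.05 to 0.499). No paired analysis was possible because each group has a single list for its 2 numbered libraries, and for the same reason no replicate could be left out. Depth is unknown, so a weak site and a closed site cannot be told apart.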
